A study of Mus musculus with 12 samples.

Results

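The genes described here are 10 that encode regulators of G protein signalling or an anchor of such regulators: Rgs2, Rgs4, Rgs7, Rgs7bp, Rgs8, Rgs9, Rgs10, Rgs14, Rgs16 and Rgs20. They were selected by symbol from the 23282 gene rows of RNAseq data on brain tissue (striatum or cortex) from R6/2 HD mice and WT littermates, and the list was chosen because Rgs4, Rgs7bp and Rgs20 were lower in R6/2 mice in these same data. For those 3 genes the comparisons with genotype and stage are therefore given as values without a test, and the counts of called genes in those comparisons cover the other 7. The tests of a difference between striatum and cortex, also by stage or genotype, and of age in WT cover all 10. The whole list was named with earlier results of these data known, so counts of called members are not shown to be independent of the choice. All 10 passed the filter on low counts.

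The R6/2 transgene is exon 1 of the human HTT gene with a long CAG tract, under the human HTT promoter, so the line models a fragment of the mutant protein in every tissue that uses that promoter. The 12 libraries were 2 each of HD striatum and HD cortex at 13 weeks, which the labels call post-symptomatic, 2 each of the same regions at 8 weeks, which the labels call pre-symptomatic, and 1 WT library for each region at each age. The mice received no agent; in the labels the treatment field holds the age. The HD replicates are separate samples by their titles, but no source used here says whether each is 1 mouse or a pool. In each HD group Ddx3y exceeded Xist in replicate 1 and Xist exceeded Ddx3y in replicate 2. The 2 replicates thus differ in sex and do not come from 1 mouse. The p-values measure the spread between these samples only, which holds that difference of sex.

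RGS proteins bind the active, GTP-loaded form of a G protein alpha subunit and speed up its hydrolysis of GTP, which ends the signal of the receptor upstream. In the striatum, where dopamine, adenosine, opioid and muscarinic receptors all act through G proteins on the same projection neurons, they set how long each signal lasts. The R4 subfamily (Rgs2, Rgs4, Rgs8 and Rgs16) holds small proteins that are little more than the RGS domain, the R7 subfamily (Rgs7 and Rgs9) needs the beta subunit Gnb5 as an obligate partner and is held at membranes by the palmitoylated anchor Rgs7bp, the R12 subfamily holds Rgs10 and Rgs14, and Rgs20 of the RZ subfamily acts on alpha z.

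In the GENCODE M21 annotation of GRCm38 (mm10), 6 of the 10 genes lie on chromosome 1. Rgs4 is at chr1:169741477-169747642 on the minus strand, Rgs7bp at chr13:104945904-105054930 on the minus strand, and Rgs20 at chr1:4909576-5070285 on the minus strand. Rgs8 at chr1:153653025-153700323 and Rgs16 at chr1:153740349-153745468 are neighbours on the plus strand, 40025 bases apart. The antisense gene Gm28513 covers the 3′ end of Rgs16, where the 3′ reads of this assay fall, and whether the counting used strand is not given in the sources used here, so reads of those genes may not have been told apart.

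The bases before the transcription start of 4 members are shown, because Rgs4, Rgs7bp and Rgs8 had the same direction and no overlap between stages in both regions and Rgs7 is the member whose 13-week levels came closest to WT in the fit. They come from the RefSeq promoter windows of GRCm38.p6, which run from 250 bases before to 50 bases after a start site and held 8 of the 10 members (Rgs14 and Rgs20 were not among them). Capitals mark the letters of 4 motifs searched on both strands: TATAAA, the CCAAT box, the GC box GGGCGG and the core TGACG of the cAMP response element. The 250 bases before the start are printed in the direction of the gene, from chr1:169747643-169747892 (minus) for Rgs4, chr13:105054931-105055180 (minus) for Rgs7bp, chr1:153652787-153653036 (plus) for the first of 3 Rgs8 starts, and chr1:175492546-175492795 (minus) for Rgs7.
Rgs4: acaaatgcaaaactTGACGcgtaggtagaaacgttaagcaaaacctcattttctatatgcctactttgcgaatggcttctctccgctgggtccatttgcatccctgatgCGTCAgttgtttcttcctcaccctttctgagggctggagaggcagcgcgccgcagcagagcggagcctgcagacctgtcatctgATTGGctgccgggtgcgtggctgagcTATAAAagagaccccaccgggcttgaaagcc
Rgs7bp: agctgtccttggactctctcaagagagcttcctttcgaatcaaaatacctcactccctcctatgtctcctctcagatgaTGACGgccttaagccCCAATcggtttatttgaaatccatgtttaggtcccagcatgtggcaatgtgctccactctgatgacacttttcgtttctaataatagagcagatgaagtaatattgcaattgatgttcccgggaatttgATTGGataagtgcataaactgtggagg
Rgs8: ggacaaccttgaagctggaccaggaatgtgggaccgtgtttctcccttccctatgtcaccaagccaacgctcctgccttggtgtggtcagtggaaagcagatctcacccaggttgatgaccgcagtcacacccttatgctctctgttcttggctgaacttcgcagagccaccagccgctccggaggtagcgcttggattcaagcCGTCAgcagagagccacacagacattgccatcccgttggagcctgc
Rgs7: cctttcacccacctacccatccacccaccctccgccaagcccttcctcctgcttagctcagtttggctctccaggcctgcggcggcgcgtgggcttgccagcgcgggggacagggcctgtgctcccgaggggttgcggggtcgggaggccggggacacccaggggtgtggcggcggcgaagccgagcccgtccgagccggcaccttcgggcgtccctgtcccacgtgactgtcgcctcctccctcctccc

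The Rgs4 window held a TATAAA whose first base lies at -31, counted with the start site as 0, a CCAAT box on the reverse strand at -57 and 2 copies of the core. Of the letters searched, TATAAA was present in 13.6% of all 32851 windows of this length, CCAAT in 37.4%, TGACG in 20.8% and GGGCGG in 35.7%. The Rgs7bp window held 2 CCAAT boxes and 1 such core, the Rgs8 window shown held 1 core, and the Rgs7 window held none of the 4 motifs. Rgs7bp had a GC content of 42.67% with 5 CpG in its 300 bases and Rgs4 had 53% with 13, against 73.33% with 34 for Rgs7 and medians of 52.67% and 7 over all windows. The full element TGACGTCA, which contains the core and occurs in 1.79% of windows, was found in none of the 8 members' windows. These letters are a description of the sequence and not of binding.

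Library totals ranged from 8814386 to 12091201 counts, and levels are given as CPM, counts scaled to library size by TMM factors over the 12 libraries. Striatal projection neuron markers were higher in striatum for 7 of 7 tested and cortical excitatory markers lower for 7 of 7, as the region labels say. The reads on Rn45s, the ribosomal precursor, took from 10.5% to 15.2% of each HD library and from 4.32% to 5.62% of each WT library. Xist exceeded Ddx3y in replicate 2 of each HD group and in both 13-week WT libraries, and Ddx3y exceeded Xist in the others, so age and sex cannot be told apart in WT. Replicate 2 of pre-symptomatic HD striatum stood apart: against replicate 1, 0 of the 7 striatal projection neuron markers with a count in either were higher (median log2 ratio -1.51), while 6 of 6 thalamus markers (4.33) and 8 of 8 oligodendrocyte markers (2.51) were. Calls of members that rest on it are given with and without it. The 3 choroid plexus markers summed to 2988 CPM in replicate 2 of post-symptomatic HD cortex and 940 CPM in that striatal replicate, against 1.34 to 110 CPM in the other 10 libraries. Without the cortical library the count of members called was again 1 between HD stages and 3 against WT at 13 weeks. The share of all genes called was then 1.48% and 5.22%, against 6.45% and 7.36% with that library.

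Rgs4, a short-lived R4 protein that acts on alpha i and alpha q, was low in each 13-week HD library and in no other. In striatum it stood at 161 and 226 CPM in the post-symptomatic HD libraries, 1134 and 1196 in the pre-symptomatic HD libraries, 1735 in WT at 13 weeks and 1104 in WT at 8 weeks. In cortex it stood at 262 and 252 CPM in post-symptomatic HD, 1331 and 1534 in pre-symptomatic HD, 1127 in WT at 13 weeks and 1633 in WT at 8 weeks. The post-symptomatic HD libraries did not overlap with any other library in either region, while the 8-week HD libraries lay beside WT. The post-symptomatic mean was 16.6% of the pre-symptomatic HD mean in striatum and 17.9% in cortex. The fitted log2 difference between stages over both regions was -2.52 (SE 0.14), against WT at 13 weeks it was -2.71 (SE 0.21), and at 8 weeks HD and WT differed by -0.07 (SE 0.22). The difference from WT at 13 weeks was -2.14 without the 13-week WT striatum library and -3.16 without the 13-week WT cortex library.

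Rgs7bp, the membrane anchor of the R7 proteins, was likewise lowest in the 13-week HD libraries of both regions, over a smaller range. Its striatal levels were 497 and 654 CPM in post-symptomatic HD, 1219 and 1304 in pre-symptomatic HD, 1298 in WT at 13 weeks and 821 in WT at 8 weeks. Its cortical levels were 569 and 534 CPM in post-symptomatic HD, 1144 and 1077 in pre-symptomatic HD, 869 in WT at 13 weeks and 814 in WT at 8 weeks. At 8 weeks the HD libraries were above the WT library of their age in both regions, and at 13 weeks they were below it. The fitted log2 difference was -1.06 (SE 0.12) between HD stages, -0.93 (SE 0.15) against WT at 13 weeks and 0.53 (SE 0.16) at 8 weeks. At 13 weeks it was -0.68 without the 13-week WT striatum library and -1.16 without the 13-week WT cortex library.

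Rgs20, the RZ member, was lower in HD than in WT at both ages. Striatal levels were 31.8 and 32.3 CPM in post-symptomatic HD, 66.9 and 30.9 in pre-symptomatic HD, and 86.8 and 92.0 in WT at 13 and 8 weeks. Cortical levels were 17.7 and 16.4 CPM in post-symptomatic HD, 43.1 and 35.5 in pre-symptomatic HD, and 50.7 and 49.4 in WT at 13 and 8 weeks. In cortex the 3 groups formed 3 separate steps, and in striatum the only overlap between HD stages came from the pre-symptomatic replicate 2 at 30.9 CPM. The fitted log2 difference was -1.50 (SE 0.25) against WT at 13 weeks, -0.62 (SE 0.25) at 8 weeks and -0.89 (SE 0.24) between HD stages. Without that replicate it was -0.38 at 8 weeks and -1.13 between HD stages.

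**Figure D1:**
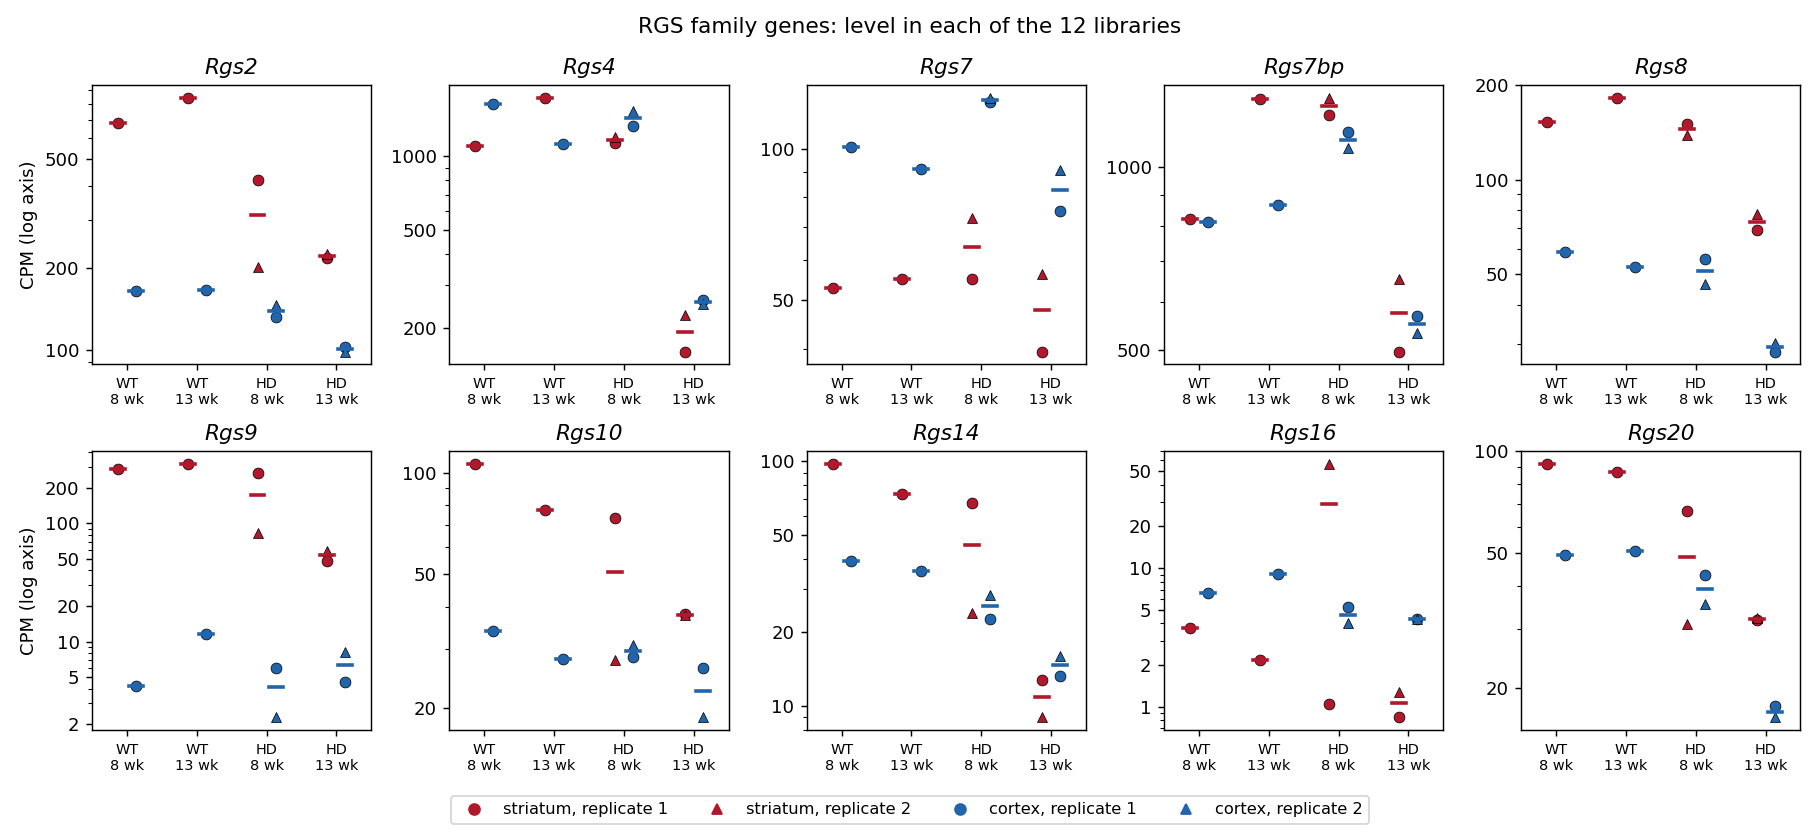
CPM of each RGS gene on log axes in the 12 libraries, by genotype and age, with striatum in red, cortex in blue, replicate 1 as circles, replicate 2 as triangles and group means as bars. Rgs4 and Rgs7bp are low in the 13-week HD libraries of both regions, Rgs9 is high in striatum, and Rgs16 reaches 56.8 CPM in 1 library.

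The comparison of post-symptomatic with pre-symptomatic HD mice asks what changes with onset. Among the other 7 members only Rgs8, an R4 protein known from striatal neurons and Purkinje cells, passed the threshold; its log2 level fell by 0.88 (SE 0.11, adjusted p = 0.0036). Adjusted p-values here and in what follows are from the quasi-likelihood test of edgeR, corrected over all genes tested by the method of Benjamini and Hochberg. Across all 13944 genes tested 6.45% were called, and 4.53% were called lower after onset, so that 1 of 7 is read against that share. Rgs8 stood at 69.0 and 78.1 CPM in post-symptomatic and 151 and 139 CPM in pre-symptomatic HD striatum, with 183 and 153 CPM in WT at 13 and 8 weeks. In cortex it stood at 28.4 and 30.2 CPM in post-symptomatic HD, 55.8 and 46.7 in pre-symptomatic HD, and 52.7 and 59.1 in WT at 13 and 8 weeks. Rgs8 had no overlap between post-symptomatic HD and any other group of its region, and its level before onset lay near WT, as with Rgs4.

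The other 6 members missed the threshold. Rgs14, an R12 scaffold with a GoLoco motif that is best known from hippocampal CA2 neurons, had a log2 difference of -1.41 (SE 0.37, adjusted p = 0.0612). Rgs7, an R7 protein, had -0.49 (SE 0.15, adjusted p = 0.0909), Rgs2 -0.47 (SE 0.19, adjusted p = 0.177), Rgs10 -0.39 (SE 0.26, adjusted p = 0.417), Rgs9 -0.70 (SE 0.64, adjusted p = 0.577) and Rgs16 -2.27 (SE 1.49, adjusted p = 0.428). All 10 fitted values were negative, with a median of -0.88 against 0.00 over all genes tested, which includes the 3 genes whose direction the choice of the list set. These values join both regions. For Rgs9 the log2 ratio of mean CPM between HD stages was -1.70 in striatum and 0.62 in cortex, where HD levels lay between 2.28 and 8.12 CPM.

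The library that stood apart decided several of these calls. Without replicate 2 of pre-symptomatic HD striatum, 4 of 7 passed: Rgs8, Rgs2 at -0.65 (SE 0.12, adjusted p = 0.0043), Rgs10 at -0.62 (SE 0.17, adjusted p = 0.0349) and Rgs14 at -1.56 (SE 0.37, adjusted p = 0.0346). Without replicate 1 of that group 3 of 7 passed: Rgs8, Rgs7 at -0.60 (adjusted p = 0.0227) and Rgs14 at -0.94 (adjusted p = 0.0121). The share of all genes called rose as well, from 6.45% to 10.6% without replicate 2 and 10.3% without replicate 1, so these counts are not read as particular to the members. Among the same 7 genes, each post-symptomatic HD library lay below each pre-symptomatic HD library of its region for Rgs8 and Rgs14, and also for Rgs2 and Rgs10 once the library that stood apart was left out, beside 11.3% and 17.3% of all genes. Rgs4 and Rgs7bp, whose values chose the list, had the same lack of overlap, and Rgs20 had it only without that library. Cell type markers moved with stage too: 3 of 7 striatal projection neuron markers were called lower after onset (median log2 difference -1.12), as were 2 of 6 interneuron markers (-1.14) and 1 of 6 astrocyte markers (-0.62), and their part in the RGS values was not tested.

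The comparison of post-symptomatic HD with WT mice of the same age gave 3 calls among the 7, all lower in HD: Rgs2, Rgs8 and Rgs14. Of all 14706 genes 7.36% were called, and 4.26% were called lower in HD. Rgs14 had a log2 difference of -1.97 (SE 0.45, adjusted p = 0.0269), Rgs2 of -1.38 (SE 0.31, adjusted p = 0.0249) and Rgs8 of -1.09 (SE 0.14, adjusted p = 0.00176). The members' median, the 3 choosing genes included, was -1.24 against 0.01 over all genes. Because each WT age had 1 library per region, this test holds no spread between WT mice, and without the 13-week WT striatum library 0 of 7 members and 0.19% of all genes passed (Rgs8 -0.89, adjusted p = 0.0791; Rgs2 -0.82, 0.396; Rgs14 -1.67, 0.289). When either post-symptomatic HD striatum library was left out only Rgs8 passed. Of all genes, 4.29% were called without replicate 1 of that group and 5.96% without replicate 2. The call of Rgs14 was also lost without replicate 1 of post-symptomatic HD cortex (-2.07, adjusted p = 0.0512) and without the 13-week WT cortex library (-2.26).

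Rgs14 stood at 12.8 and 8.98 CPM in post-symptomatic HD striatum, 67.4 and 24.1 in pre-symptomatic HD striatum, and 73.9 and 98.0 in WT striatum at 13 and 8 weeks. In cortex it stood at 13.3 and 16.1, 22.7 and 28.4, and 35.7 and 39.3 CPM in the same order. Both regions thus held 3 steps without overlap, WT above pre-symptomatic above post-symptomatic HD. The post-symptomatic mean was 14.7% of WT at 13 weeks in striatum and 41.1% in cortex, a difference between regions that is taken up again with the region tests.

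Rgs2, an R4 protein that prefers alpha q and is induced by activity, stood at 218 and 224 CPM in post-symptomatic HD striatum, 422 and 201 in pre-symptomatic HD striatum, and 844 and 681 in WT striatum at 13 and 8 weeks. In cortex it stood at 103 and 98.5, 132 and 146, and 166 and 165 CPM in the same order. HD libraries were below WT in both regions at both ages, and the striatal HD stages overlapped through replicate 2 of the pre-symptomatic group. Its post-symptomatic HD mean was 26.2% of WT in striatum and 60.7% in cortex.

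The other 4 of the 7 members did not pass against WT at 13 weeks. Rgs9 had a log2 difference of -1.68 (SE 0.74, adjusted p = 0.222), Rgs16 of -1.06 (SE 1.42, adjusted p = 0.731), Rgs10 of -0.69 (SE 0.33, adjusted p = 0.257) and Rgs7 of -0.17 (SE 0.17, adjusted p = 0.610). Rgs10 passed without the pre-symptomatic HD striatum replicate 2 (-0.67, SE 0.20, adjusted p = 0.0443), a library of neither group compared. In that fit 12.5% of all genes were called, against 7.36% with all libraries. For 5 of the 7 members (Rgs2, Rgs8, Rgs10, Rgs14 and Rgs16) each post-symptomatic HD library was below both WT libraries of its region, beside 15.9% of all genes, and the 3 genes that chose the list had the same lack of overlap. In these bulk samples fewer cells of a type and less RNA per cell cannot be told apart: 4 of 7 striatal projection neuron markers were also called lower against WT (median log2 difference -1.65), as were 3 of 6 interneuron markers, and the summed striatal level of the projection neuron list was 1337 and 1352 CPM in post-symptomatic HD against 7417 and 6825 in WT. Of the 9 genes on that list Drd2 and Gpr6 had at most 4 counts in any library, and the other 7 carry the sum. Their part in the levels of the RGS genes was not tested.

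**Figure D2:**
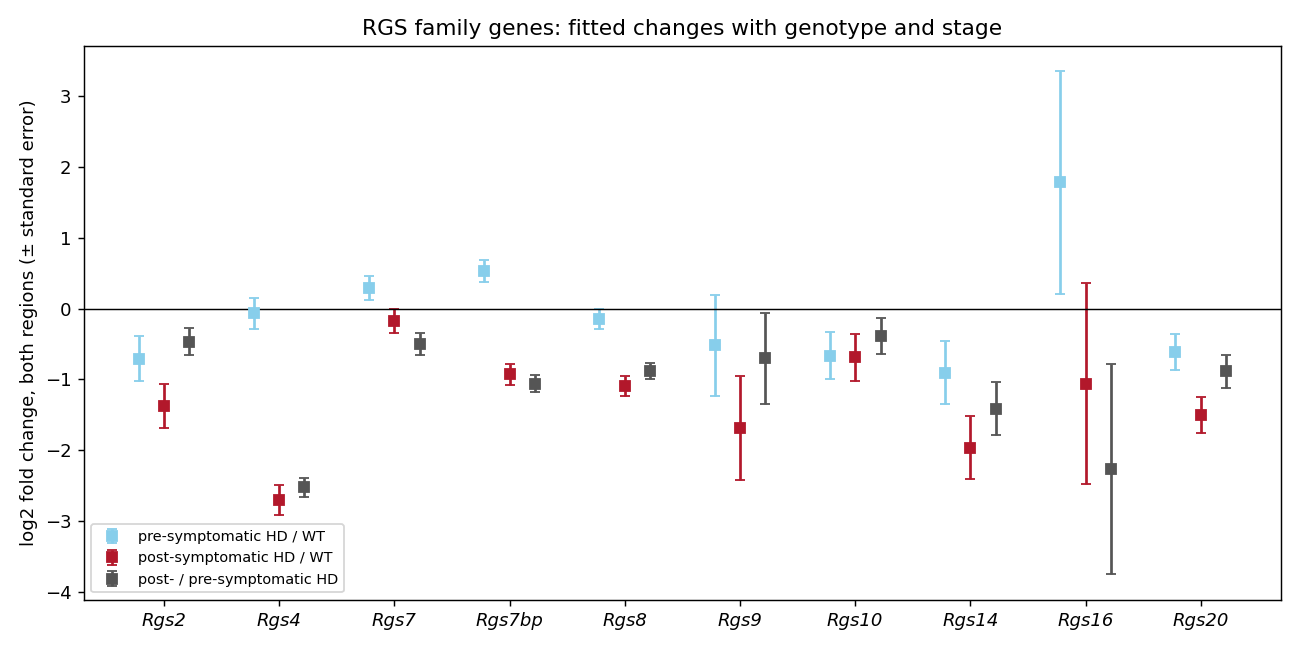
Fitted log2 fold changes of the RGS genes over both regions, with standard errors, for pre-symptomatic HD against WT in blue, post-symptomatic HD against WT in red and post-symptomatic against pre-symptomatic HD in grey. Rgs4 is near 0 before onset and at -2.71 after it, Rgs7bp changes sign between the ages, and Rgs16 has standard errors above 1.4.

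Before onset, 0 of the 7 members passed against WT by edgeR or by DESeq2, and 2.1% of all genes were called. At an unadjusted p under 0.05 there was 1, Rgs2, at -0.70 (SE 0.31, adjusted p = 0.350). Rgs14 had -0.90 (SE 0.44, adjusted p = 0.405), Rgs10 -0.67 (SE 0.33, adjusted p = 0.415), Rgs9 -0.52 (SE 0.72, adjusted p = 0.811), Rgs8 -0.14 (SE 0.14, adjusted p = 0.716), Rgs7 0.29 (SE 0.17, adjusted p = 0.498) and Rgs16 1.79 (SE 1.57, adjusted p = 0.678). Without replicate 2 of pre-symptomatic HD striatum the values were -0.47 for Rgs2, -0.69 for Rgs14, -0.40 for Rgs10 and -0.27 for Rgs9. They were -0.12 for Rgs8, 0.24 for Rgs7 and -1.10 for Rgs16, whose sign turned. Each pre-symptomatic HD library was below both WT libraries of its region for 2 of the 7, Rgs2 and Rgs14, beside 8.47% of all genes, and without replicate 2 of the striatum also for Rgs16, beside 13.9%. Rgs20, 1 of the genes that chose the list, had the same order.

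Both remaining contrasts with age ask whether the change belongs to HD rather than to age. In WT, 13 weeks against 8 weeks gave 0 of 10 members by either tool, with 0 at an unadjusted p under 0.05, and 0.0136% of all genes. Rgs7bp came nearest with a log2 difference of 0.39 (SE 0.18, adjusted p = 1), from 821 to 1298 CPM in striatum and from 814 to 869 CPM in cortex. The change with stage in HD less the change with age in WT gave 0 of 7 members and 0.116% of all genes, with Rgs8 at -0.95 (SE 0.20, adjusted p = 0.125) the 1 member with an unadjusted p under 0.05. DESeq2 called Rgs8 in that comparison (-0.96, adjusted p = 0.00512), as did edgeR without replicate 2 of pre-symptomatic HD striatum (-0.97, adjusted p = 0.0355), fits in which 1.57% and 1.44% of all genes were called. For the genes that chose the list the same difference was -2.64 (SE 0.32) for Rgs4, -1.46 (SE 0.22) for Rgs7bp and -0.88 (SE 0.37) for Rgs20.

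As the members were chosen with earlier results of these data known, independence from that choice is not shown for striatum against cortex either. The comparison is not part of the stated reason for the list, and all 10 members were tested in it. Of these, 5 were higher in striatum (Rgs9, Rgs2, Rgs8, Rgs10 and Rgs20) and Rgs7 was lower, while 20.6% of all genes were called and 8.51% were called higher in striatum. Rgs9, whose long splice form is the striatal regulator of dopamine and opioid receptor signalling, had the largest difference among the members, a log2 difference of 4.63 (SE 0.58, adjusted p = 7.56e-04). The difference was 1.50 (SE 0.22, adjusted p = 8.57e-04) for Rgs2, 1.47 (SE 0.10, adjusted p = 1.20e-06) for Rgs8, 1.03 (SE 0.23, adjusted p = 0.00926) for Rgs10 and 0.69 (SE 0.18, adjusted p = 0.0152) for Rgs20. The difference was -0.86 (SE 0.11, adjusted p = 2.29e-04) for Rgs7.

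Rgs9 stood at 48.3 and 58.8 CPM in post-symptomatic HD striatum, 265 and 82.5 in pre-symptomatic HD striatum, and 321 and 289 in WT striatum at 13 and 8 weeks. In cortex it lay between 2.28 and 11.5 CPM. Every striatal library was above every cortical one, and within striatum both post-symptomatic HD libraries were below the rest. The post-symptomatic mean in striatum was 30.8% of the pre-symptomatic HD mean, or 20.2% of replicate 1 alone, and 16.7% of WT at 13 weeks.

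Rgs2 and Rgs8 also had every striatal library above every cortical library, and Rgs7 had every cortical library above every striatal one. Rgs7 ranged from 39.5 to 72.7 CPM in striatum and from 75.1 to 126 CPM in cortex. Rgs10, known from microglia and neurons, ranged from 27.8 to 106 CPM in striatum, where WT stood at 77.4 and 106 and post-symptomatic HD at 38.1 and 37.8, and from 18.8 to 34.0 CPM in cortex. The regions overlapped for Rgs10 through the pre-symptomatic HD striatum replicate 2 at 27.8 CPM.

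Rgs4, Rgs7bp, Rgs14 and Rgs16 did not pass between regions. Rgs4 had a log2 difference of -0.23 (SE 0.15, adjusted p = 0.314) and passed, lower in striatum, without either 13-week WT library (-0.40, adjusted p = 0.0426 without striatum and 0.0435 without cortex). Rgs7bp had 0.18 (SE 0.10, adjusted p = 0.257) and Rgs14 0.57 (SE 0.31, adjusted p = 0.244). Rgs16, an R4 protein induced by several stimuli, had -0.21 (SE 1.11, adjusted p = 0.923), and with the pre-symptomatic HD striatum replicate 2 left out it had -1.79 (SE 0.30, adjusted p = 6.82e-04). In that fit 25.4% of all genes were called, against 20.6% with all libraries.

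**Figure D3:**
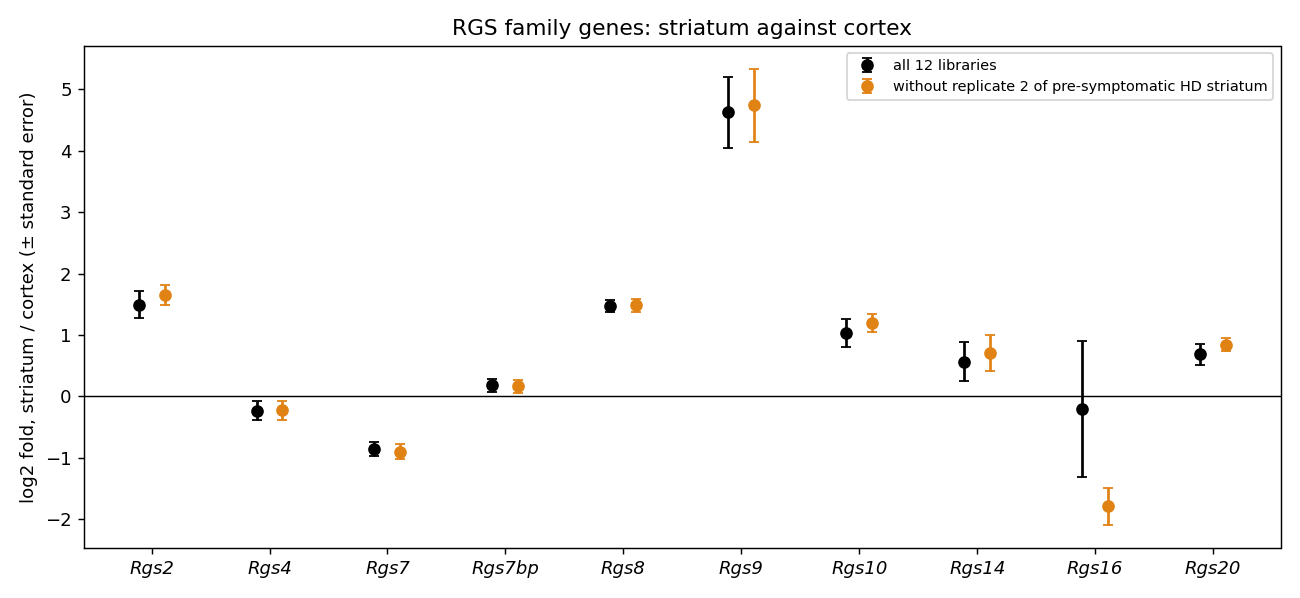
Fitted log2 difference of striatum over cortex for the RGS genes, with standard errors, over all 12 libraries in black, and in orange with replicate 2 of pre-symptomatic HD striatum left out. Rgs9 lies at 4.63, Rgs7 below 0 at -0.86, and Rgs16 moves from -0.21 to -1.79.

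Rgs16 in fact held 528 counts in that replicate and from 9 to 37 in the other 5 striatal libraries. Its striatal levels were 0.839 and 1.28 CPM in post-symptomatic HD, 1.05 and 56.8 in pre-symptomatic HD, and 2.19 and 3.72 in WT at 13 and 8 weeks, and its cortical levels lay between 4.02 and 9.14 CPM. The 6 thalamus markers summed to 2036 CPM in that replicate and to between 94.2 and 264 CPM in the other striatal libraries, and the 8 oligodendrocyte markers to 21020 CPM against between 3414 and 7296 CPM, with none of either list at 0. Between replicates 2 and 1 of this group the log2 ratio was 5.75 for Rgs16, -1.69 for Rgs9, -1.48 for Rgs14, -1.41 for Rgs10, -1.11 for Rgs20, -1.07 for Rgs2, 0.40 for Rgs7, and between -0.12 and 0.10 for Rgs8, Rgs4 and Rgs7bp. The part of tissue makeup in these ratios was not tested.

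A further test asks whether the change with stage in HD differed between regions. By edgeR 0 of 10 members and 0% of 14392 genes passed, with 1 member (Rgs9) and 519 genes at an unadjusted p under 0.05, and DESeq2 called 0 members and 17 genes. Rgs9 had a log2 difference between the regional changes of -2.26 (SE 0.91, adjusted p = 0.9999), Rgs14 of -1.22 (SE 0.62), Rgs4 of -0.06 (SE 0.27), Rgs7bp of -0.08 (SE 0.25) and Rgs8 of -0.13 (SE 0.24). A missed threshold does not show that the regional changes were equal. In CPM, Rgs4 changed with stage by a log2 ratio of -2.59 in striatum and -2.48 in cortex, Rgs7bp by -1.13 and -1.01, and Rgs8 by -0.98 and -0.81. Rgs14 changed by -2.07 and -0.80, and without the pre-symptomatic HD striatum replicate 2 its regional difference passed (-1.83, SE 0.36, adjusted p = 0.0299), as did 1.02% of all genes. Without replicate 1 of that group Rgs16 passed instead (-5.61, adjusted p = 1.57e-04), on the library with 528 counts.

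The difference between striatum and cortex was also compared between HD and WT. By edgeR 0 of 10 members and 0% of 14706 genes passed, with 1 member (Rgs2) and 1493 genes at an unadjusted p under 0.05, and DESeq2 called 0 members and 64 genes. Rgs2 had a log2 difference of -1.05 (SE 0.32, adjusted p = 0.376): its striatal level exceeded cortex by a log2 ratio of 1.14 and 1.16 in post- and pre-symptomatic HD and by 2.35 and 2.05 in WT at 13 and 8 weeks. Without replicate 1 of pre-symptomatic HD striatum, which leaves the replicate that stood apart alone in its group, Rgs2 had -1.30 and Rgs14 -1.47. Without the replicate that stood apart, Rgs2 had -0.87 and Rgs14 -0.78. These genes passed only in the fit that rests on that replicate alone. Of the 10 fitted values, the 3 genes that chose the list included, 9 were negative, with a median of -0.31 against 0.00 over all genes.

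**Figure D4:**
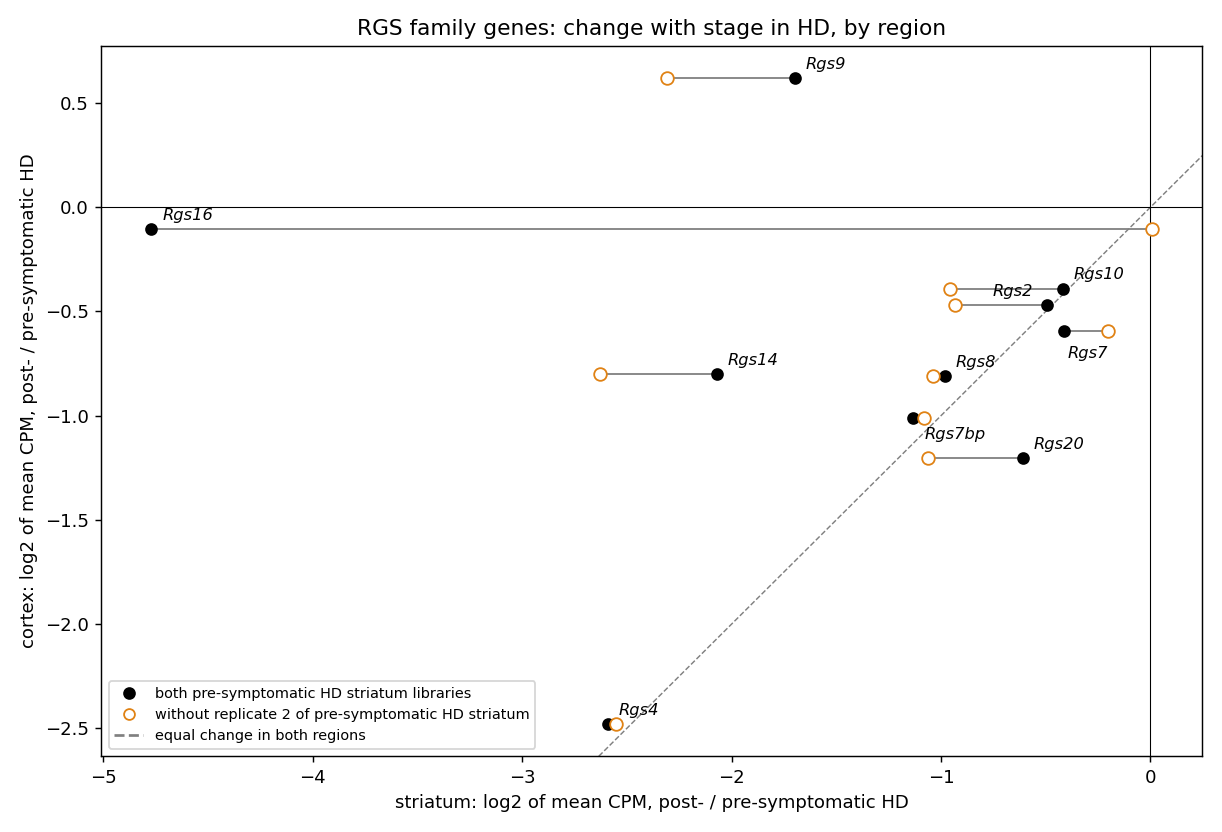
Log2 ratio of mean CPM in post-symptomatic over pre-symptomatic HD in striatum (x axis) and cortex (y axis) for each RGS gene, with both pre-symptomatic striatum libraries (black) and without replicate 2 (orange). Rgs4, Rgs7bp and Rgs8 lie near the line of equal change, Rgs14 and Rgs9 lie to its left, and Rgs16 moves from -4.77 to 0.01 in striatum.

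Other genes of the pathway were tested as lists chosen with earlier results of these data known. Of 12 other RGS genes 8 passed the filter in the fit of all libraries and 7 in the fit of HD stages, where Rgs19, an RZ relative of Rgs20, rose by 1.14 (SE 0.22, adjusted p = 0.0166) and Rgs11, an R7 protein, fell by 1.61 (SE 0.40, adjusted p = 0.0414) on the log2 scale. Rgs5, an R4 gene best known from pericytes, was the only one of the 8 called against WT: it was higher in HD by 0.79 (SE 0.20, adjusted p = 0.0360) at 13 weeks and by 1.12 (SE 0.21, adjusted p = 0.0176) at 8 weeks. Rgs5 stood between 21.8 and 39.1 CPM in the 8 HD libraries and between 13.7 and 15.1 CPM in the 4 WT libraries, without overlap. The 6 endothelial and mural markers had a median log2 difference of 0.02 at 13 weeks and -0.16 at 8 weeks, and the part of vascular cells in the Rgs5 level was not tested.

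Of 4 partners of the R7 proteins, Gpr158, the orphan receptor that recruits Rgs7, was lower in post-symptomatic HD than in WT (-1.06, SE 0.26, adjusted p = 0.0269) and fell between HD stages (-0.86, SE 0.21, adjusted p = 0.0390). Gnb5, the obligate beta subunit of Rgs7 and Rgs9, had -0.88 against WT at 13 weeks (SE 0.28, adjusted p = 0.0868) and was higher in striatum than in cortex (0.76, SE 0.20, adjusted p = 0.0180). Of 10 alpha subunits tested, 1 was called between HD stages: Gnal, the olfactory alpha subunit that couples striatal dopamine and adenosine receptors to adenylyl cyclase, fell by 0.76 (SE 0.19, adjusted p = 0.0431). Against WT at 13 weeks Gnal had -0.48 (SE 0.22, adjusted p = 0.216). Between regions, 2 of 8 other RGS genes were lower in striatum, 1 of 4 R7 partners was higher, 1 of 10 alpha subunits was higher and 4 were lower, and 2 of 4 genes of the GoLoco and Ric8 list, which act on inactive alpha subunits, were higher. The largest of these log2 differences were -3.24 (SE 0.99, adjusted p = 0.0391) for Rgs13, which rests on 15 and 33 counts in post-symptomatic HD cortex and at most 3 in any other library, 2.14 (SE 0.15, adjusted p = 2.54e-06) for Gnal, -1.62 (SE 0.28, adjusted p = 0.00157) for Rgs6 and 1.27 (SE 0.23, adjusted p = 0.00256) for Ric8b, a chaperone of Gnal. The GoLoco and Ric8 list had a median of -0.25 against WT at 13 weeks and 0.24 between HD stages. Over these lists the 4 calls between HD stages went to 0 when any 1 of the HD cortex libraries or replicate 1 of post-symptomatic HD striatum was left out. In those fits 1.48% to 2.45% of all genes were called, against 6.45% with all HD libraries. The 2 calls against WT at 13 weeks went to 0 without replicate 1 of post-symptomatic HD striatum or cortex or the 13-week WT striatum, and the 1 call at 8 weeks without replicate 1 of pre-symptomatic HD cortex or either 8-week WT library. The share of all genes at 13 weeks was 4.29% and 4.33% without those HD libraries, against 7.36%. At 8 weeks it was 0.805% without the HD library, against 2.1%. It fell without each of those WT libraries too, so these losses are not read as particular to the lists.

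Across the 12 libraries the members fell into patterns that region and stage both shape. As a description of log2(CPM + 1), which shares libraries and depth between genes, Pearson's r was 0.95 between Rgs2 and Rgs10, 0.90 between Rgs2 and Rgs8 and 0.88 between Rgs4 and Rgs7bp, against 0.09 between Rgs4 and Rgs9. Among all genes with a mean of at least 5 CPM, those most like Rgs4 were Ier5l (0.97), Polb (0.97) and AI593442 (0.96). Those most like Rgs7bp were Ckb (0.95), Kctd17 (0.94) and Lrrc3 (0.93), and those most like Rgs20 were Kcnip2 (0.97), Car11 (0.95) and Tesc (0.95), again over 12 libraries.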

How the data were processed

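Libraries came from total RNA by the Lexogen QuantSeq protocol, which reads transcripts from their 3′ ends, so levels do not scale with gene length. The authors deposited raw counts per gene symbol, 1 table per library. The submitters' processing notes name Bowtie2, bedtools and the mm10 build; versions, annotation, strand use and the counting rule are not given in the sources used here. Of 23282 rows, 44 repeated a symbol and 0 lacked one. Groups, ages and replicates came from the labels, and all 12 libraries were used.

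Tests used edgeR 4.0.16 under R 4.3.3: TMM scaling, filterByExpr (min.count 10) and its quasi-likelihood test with robust moderation, with Benjamini-Hochberg adjustment over all genes and a threshold of 0.05. Genotype, age and region were fitted over 12 libraries (14706 genes), and HD stages over 8 (13944 genes), with regions treated as independent. Standard errors were the log2 fold change divided by the root of F. Counting precision covers sampling only, as no molecular identifiers are named. The tests were checked on simulated data. As alternatives, a replicate block was added, each library was left out, the filter was dropped or raised to 1 CPM in all libraries, scaling was by upper quartile, and DESeq2 1.42.0 was used. Leaving out the library that stood apart from counts of non-overlap was added after seeing the data. The members and lists were chosen with earlier results of these data known. The text names all 10 members, the called genes of 4 other lists with the largest changes, and the 3 genes most like each of Rgs4, Rgs7bp and Rgs20.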

Additional observations from a re-analysis of the deposited data

How the results depend on the processing

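Depth limits Rgs16, with 9 to 50 counts in most libraries, and cortical Rgs9, and single WT libraries leave no spread for WT. The count of members called was 6 to 7 between regions and 0 before onset and with age in WT under every alternative. The share of all genes called under the alternatives was 13.4% to 25.7% between regions, at most 4.58% before onset and at most 0.0748% with age. Against WT at 13 weeks the count of members was 3, with 1 under the replicate block and 0 to 4 with a library left out. Beside it the share of all genes was 7.36%, with 6.02% under the block and up to 12.5% with a library left out. With the filter dropped the call of Rgs14 against WT was lost (-1.96, adjusted p = 0.0550). Of all genes, 6.45% were called between HD stages in the main fit, 12% by DESeq2 and 7.33% under the block. With a library left out that share ran from 1.48% to 10.6%. Beside these shares the count of members between HD stages was 1, with 3 by DESeq2 (Rgs8, Rgs7 and Rgs14) and 2 under the block. It was 1 to 4 with a library left out. For stage in HD less age in WT it was 0, with 1 by DESeq2 and 0 to 1 with a library left out, for stage between regions 0 to 1, and for region between genotypes 0 to 2. The share of all genes for stage less age was 0.116%, with 1.57% by DESeq2 and up to 1.44% with a library left out. It was at most 1.12% for stage between regions and at most 3.93% for region between genotypes. For striatum against cortex, also by stage or genotype, the block paired the striatum and cortex of 1 group and replicate number. No label ties samples of 1 replicate number to a mouse. Between striatum and cortex of 1 HD stage, r of the replicate deviations over genes was 0.20 after onset and 0.11 before it. Between HD stages of 1 region, where the ages differ, it was 0.26 in striatum and 0.04 in cortex. In HD the number separates Xist-high from Ddx3y-high libraries, so the block there is also one of sex. Every WT library is replicate 1. Against WT at 13 weeks the block therefore sets HD at the level of replicate 1, Ddx3y-high, against Xist-high libraries. The block ended the calls of Rgs2 (adjusted p = 0.0649) and Rgs14 (0.0701) against WT and added Rgs7 between stages (-0.50, adjusted p = 0.0384). The cause of these changes was not tested.

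Rgs16 did not pass a filter of 1 CPM in every library and has no value under it. Values near 0 changed sign. For Rgs10, stage less age became 0.0396 with upper-quartile normalization and 0.0018 under the block. For stage between regions, Rgs2 and Rgs10 became -0.0179 and -0.0139 by DESeq2 and -0.0284 and -0.0247 with upper-quartile normalization. With a library left out, Rgs16 ranged from -1.79 to 0.24 between regions, -1.82 to 0.47 against WT at 13 weeks, -1.10 to 2.44 at 8 weeks, -1.39 to 0.90 with age, -3.49 to 0.0450 for stage less age, -5.61 to 0.10 for stage between regions and -0.63 to 2.84 for region between genotypes. Rgs9 ranged from -1.27 to 0.66 at 8 weeks, and Rgs10 from -0.44 to 0.31 for stage less age. With age in WT the ranges were -0.40 to 0.62 (Rgs2), -0.45 to 0.57 (Rgs4), -0.13 to 0.0392 (Rgs7), -0.15 to 0.24 (Rgs8), -0.0492 to 1.70 (Rgs9), -0.71 to 0.0341 (Rgs10), -0.69 to 0.22 (Rgs14) and -0.15 to 0.11 (Rgs20). For stage between regions they were -0.47 to 0.63 (Rgs2), -0.34 to 0.16 (Rgs4), -0.0623 to 0.45 (Rgs7), -0.30 to 0.11 (Rgs7bp) and -0.56 to 0.87 (Rgs10). For region between genotypes they were -0.99 to 0.21 (Rgs4), -0.18 to 0.0482 (Rgs7), -0.47 to 0.11 (Rgs7bp), -0.39 to 0.0389 (Rgs8) and -0.41 to 0.0155 (Rgs20).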
